A study of Mus musculus with 17 samples.

Results

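The H19 and Igf2 locus was described here in the developing mouse heart from the rows of a noncoding RNA table that overlap chromosome 7, positions 149755000 to 149860000, in the coordinates of the deposited files (taken to be mm9). This window held 4 of the 23940 rows. The study sequenced total RNA from whole heart ventricles of male C57Bl/6 mice. Hearts were taken on the day of birth (P0, before the ductus arteriosus closes), on postnatal day 3 (P3, a transition stage) or on day 7 (P7, when most heart muscle cells reach terminal differentiation). The right ventricle (RV) was represented by 3 libraries at P0, 3 at P3 and 2 at P7, and the left ventricle (LV) by 3 libraries at each age. The labels name no treatment and no genetic change, and they call the libraries biological replicates without giving the number of animals in each. The tables pair no row with a gene name, so marker genes of heart muscle or other cells, and other genes of the insulin-like growth factor pathway, were not analysed here.

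H19 is an imprinted long noncoding RNA, transcribed mainly from the maternal chromosome, and Igf2, its neighbour, encodes a growth factor of fetal tissues and is transcribed mainly from the paternal one. A control region between them is bound by the insulator protein CTCF on the maternal chromosome and methylated on the paternal one, and it decides which gene reaches the enhancers they share. Both genes are known to be active in fetal tissues, heart included, and to be turned down after birth. H19 RNA is also the precursor of a microRNA, miR-675. Igf2os (also Igf2as or Peg8) is an imprinted antisense transcript of the Igf2 gene. The tables do not separate the parental alleles, and the Igf2 mRNA is not among the 4 rows.

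The miR-675 hairpin is shown because it is a stretch of annotated H19 RNA. Whether the transcript model behind the deposited H19 row includes it is not given in the sources used here. It spans 84 bases, positions 997 to 1080 of the 2286 bases of the GENCODE M21 transcript H19-202, and 3 of 7 annotated H19 transcripts contain it. In RefSeq it lies at chr7:142577064-142577147 on the minus strand of GRCm38.p6, a build other than that of the deposited positions. The hairpin is in capitals in the stretch of H19-202, given with 60 bases on each side. The 2 mature sequences are from RefSeq (GRCm38.p6), with the seed, bases 2 to 8, in capitals. In the RefSeq table of mouse microRNAs each seed was found in 1 mature sequence, its own. Mature microRNAs were not measured in these libraries.
H19-202: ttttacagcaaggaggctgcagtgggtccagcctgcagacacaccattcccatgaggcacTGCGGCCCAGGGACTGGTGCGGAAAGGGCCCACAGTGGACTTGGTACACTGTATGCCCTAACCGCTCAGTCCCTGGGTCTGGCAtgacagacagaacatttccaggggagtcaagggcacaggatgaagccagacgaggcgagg
mmu-miR-675-5p: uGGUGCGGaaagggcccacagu
mmu-miR-675-3p: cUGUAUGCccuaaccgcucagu

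The 4 rows were given names by comparing spans and distances with the annotation, with no position converted between builds. NONMMUT064276 (positions 149761434 to 149764051) spans 2618 bases, against 2615 bases for the H19 gene in GENCODE M21. NONMMUT064288 and NONMMUT064289 share their position, 149845598 to 149856261. They span 10664 bases and start 84164 bases after the H19 row. The Igf2os gene has the same span, 10664 bases, and the same distance, 84164 bases, from the start of H19 in GENCODE M21. NONMMUT064283 (149836675 to 149838935) starts 75241 bases after the H19 row, against 75237 bases between the starts of H19 and Igf2. As Igf2 lies on the minus strand, this row lies at the 3′ end of the Igf2 gene. The files give no strand, and whether strand was used in counting is not given in the sources used here, so reads from Igf2 and from its antisense transcript cannot be told apart.

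**Figure D1:**
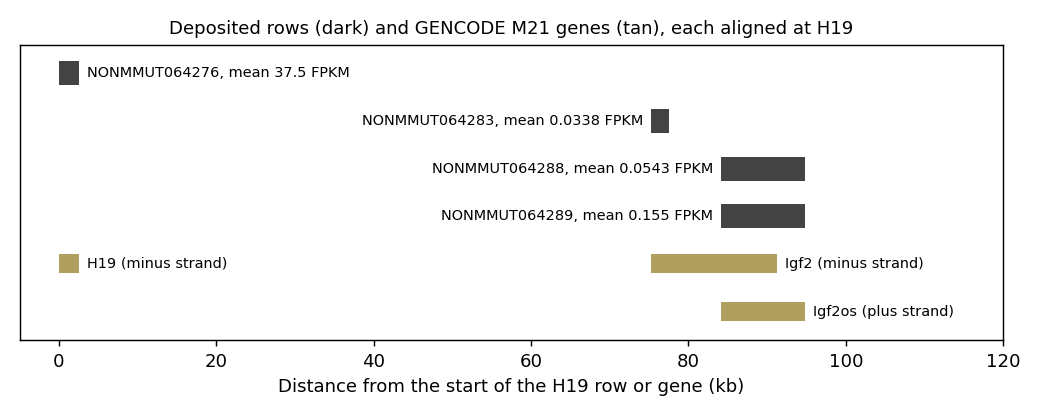
Map of the 4 deposited rows (dark bars, with the mean FPKM over 17 libraries) above the GENCODE M21 genes H19, Igf2 and Igf2os (tan bars), each drawn by distance in kb from the start of the H19 row or gene. The H19 row stands alone at the left, and the other 3 rows lie within the Igf2 and Igf2os genes.

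The unit of the values was taken to be FPKM (fragments mapped per kilobase of transcript, scaled to library depth), since they fall on steps of 0.5 fragments. The steps correspond to 13.8 to 20.5 M fragments per library. They also give the length by which each row was divided. For H19 the 17 libraries allowed 1 length only, 2257 bases, at which all 17 values were whole fragments within 0.001. This length equals that of none of the 7 annotated H19 transcripts, which run from 761 to 2286 bases, so the name of this row rests on its span and position. For the row at the 3′ end of Igf2 the length was 2095 bases. For the Igf2os rows the shortest length allowed was 341 bases for NONMMUT064288, the length of the annotated transcript Igf2os-202, and 617 bases for NONMMUT064289, that of Igf2os-201. Multiples of these 2 lengths are also possible, so the fragment numbers of the Igf2os rows are the smallest the values allow.

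H19 was the one abundant row of the locus, and it fell steeply through the first week in both ventricles. In the right ventricle it measured 92.4, 46.7 and 58.9 FPKM at P0, 25.9, 33.6 and 36.5 FPKM at P3, and 12.1 and 14.2 FPKM at P7. In the left ventricle it measured 95.7, 55.7 and 64.0 FPKM at P0, 21.8, 24.3 and 24.0 FPKM at P3, and 10.8, 10.4 and 10.9 FPKM at P7 (replicates 1 to 3 in order). Every P3 library lay below every P0 library, and every P7 library lay below every P3 library, in both ventricles pooled. How many of all rows keep the ages apart in this way was not counted. The libraries are of whole tissue, so fewer cells that contain H19 and less H19 per cell cannot be told apart.

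**Figure D2:**
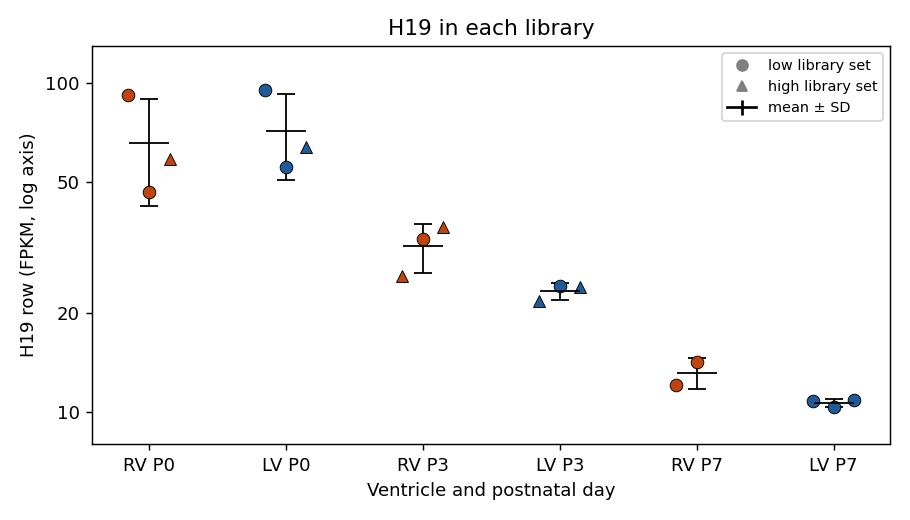
H19 in each library (FPKM, log axis) by ventricle and postnatal day; each point is 1 library, the horizontal bar is the group mean and the error bar the SD. Circles and triangles are the low and high library sets defined by a mitochondrial row. P0 libraries lie between 46.7 and 95.7 FPKM, P3 libraries between 21.8 and 36.5 FPKM and P7 libraries between 10.4 and 14.2 FPKM.

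Over the whole week H19 came down to 13.2 ± 1.44 FPKM at P7 (SD, n = 2) in the right ventricle, against 66.0 ± 23.7 FPKM at P0 (SD, n = 3), which is 19.9% of the P0 mean. The log2 change was -2.26 ± 0.23 (SE, 95% interval -2.75 to -1.78; limma adjusted p = 7.14e-06). The left ventricular level came down to 10.7 ± 0.287 FPKM at P7, against 71.8 ± 21.1 FPKM at P0 (SD, n = 3 each), or 14.9% of the P0 mean. The log2 change there was -2.70 ± 0.21 (SE, 95% interval -3.13 to -2.26; limma adjusted p = 8.89e-08). Among all 11079 rows tested, 3.72% were called lower at P7 in the right ventricle and 8.64% in the left. The median row also shifted, with a log2 change of -0.27 in the right and -0.32 in the left ventricle. Relative to that median, the change of H19 was -1.99 in the right and -2.38 in the left ventricle.

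On the FPKM scale the larger part of the fall was in place by P3. In the right ventricle H19 measured 32.0 ± 5.44 FPKM at P3, against 66.0 ± 23.7 FPKM at P0 (SD, n = 3 each), with a log2 change of -1.0 ± 0.21 (SE; limma adjusted p = 0.0104). In the left ventricle H19 measured 23.4 ± 1.37 FPKM at P3, against 71.8 ± 21.1 FPKM at P0 (SD, n = 3 each), with a log2 change of -1.58 ± 0.21 (SE; limma adjusted p = 0.000203). Called lower were 1.03% of all rows in the right and 0.921% in the left ventricle. Without RV P0 replicate 1, the highest RV library, the right ventricular change was -0.73 (limma adjusted p = 0.061), and without RV P3 replicate 1, the lowest RV library at P3, it was -0.85 (limma adjusted p = 0.0629).

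The fall continued between P3 and P7. In the right ventricle H19 measured 13.2 ± 1.44 FPKM at P7 (SD, n = 2), against 32.0 ± 5.44 FPKM at P3 (SD, n = 3), with a log2 change of -1.27 ± 0.23 (SE; limma adjusted p = 0.0116). The left ventricle had 10.7 ± 0.287 FPKM at P7, against 23.4 ± 1.37 FPKM at P3 (SD, n = 3 each), with a log2 change of -1.12 ± 0.21 (SE; limma adjusted p = 0.0116). Called lower were 0.514% of all rows in the right and 1.07% in the left ventricle. Per day, the log2 change in the right ventricle was -0.33 from P0 to P3 and -0.32 from P3 to P7, and in the left ventricle -0.53 and -0.28. The difference between these rates was not tested. These P7 against P3 calls were close to the threshold. In the right ventricle the adjusted p was 0.0547 without RV P3 replicate 2, 0.0538 without RV P3 replicate 3, and 0.205 without RV P7 replicate 1. In the left it was 0.063 without LV P3 replicate 1 and 0.0539 without LV P3 replicate 3, all by limma. With each library centred on its median row, the adjusted p by limma was 0.0949 in the right and 0.0723 in the left ventricle, with log2 changes of -1.02 and -0.88.

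Both ventricles together gave a log2 change of -2.48 ± 0.16 at P7 against P0 (SE; limma adjusted p = 2.33e-09), where 16.1% of all rows were called lower. By the F test of any change with age, H19 came 14th of 11079 rows by p (limma adjusted p = 5.58e-08; 10.6% of rows called). Its change from P0 to P7 was the 49th most negative of 11079 rows in the right ventricle and the 35th in the left. Among the 161 tested rows with a mean of 10 FPKM or more, a level chosen after the values were seen, it was the 4th most negative in both.

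H19 lost rank as well as level. At P0 it was between the 9th and the 21st most abundant of the 23940 rows in a library. At P3 it stood between the 30th and the 74th place, and at P7 between the 97th and the 141st. By its mean over all libraries, 37.5 FPKM, 25 rows were more abundant. Its share of the summed FPKM of all rows outside the mitochondrial chromosome was 0.437% to 0.832% at P0, 0.179% to 0.33% at P3 and 0.107% to 0.139% at P7. Neither ranks nor shares overlapped between ages, and how many other rows this holds for was not counted.

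**Figure D3:**
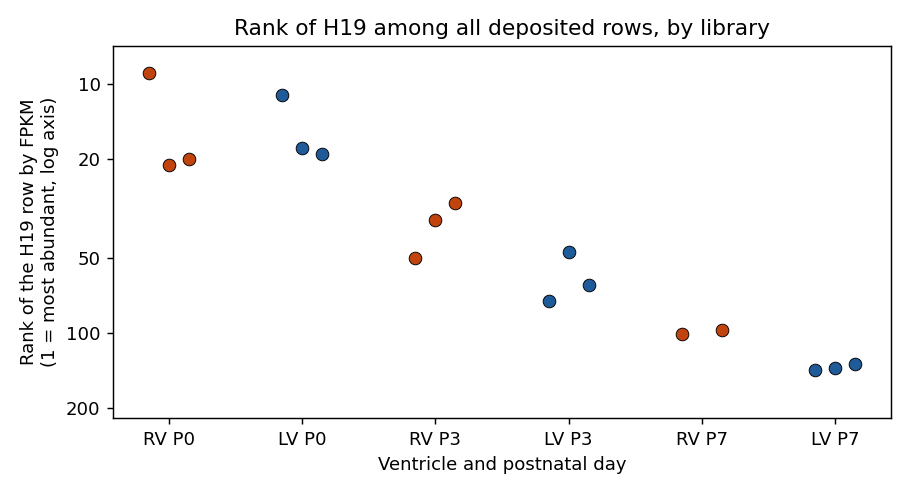
Rank of the H19 row by FPKM among all 23940 deposited rows (1 is the most abundant, log axis) by ventricle and postnatal day; each point is 1 library. Ranks run from 9 to 21 at P0, from 30 to 74 at P3 and from 97 to 141 at P7.

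Counting error was small beside the spread between libraries at P0. The H19 values rest on 388 to 4435 fragments per library, a counting error of 1.5% to 5.08%. Among the P0 libraries the coefficient of variation was 35.8% in the right and 29.4% in the left ventricle. Replicate 1 was the highest P0 library in both ventricles, at 92.4 FPKM in RV (95% Poisson interval 89.4 to 95.4) and 95.7 FPKM in LV (92.9 to 98.6). The next highest were both replicate 3, at 58.9 FPKM in RV (56.6 to 61.3) and 64.0 FPKM in LV (61.6 to 66.5), and replicate 2 was the lowest in both. The labels do not say whether libraries with the same number share an animal. The intervals cover counting error only, as PCR copies are not independent molecules. At P7 in the left ventricle the coefficient of variation was 2.68%, which is below the counting error of those libraries.

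No difference in H19 between the ventricles was called, in fits that did not pair libraries of the same number. At P0 the right ventricle measured 66.0 ± 23.7 FPKM and the left 71.8 ± 21.1 FPKM (SD, n = 3 each), with a log2 difference of -0.14 (RV over LV, 95% interval -0.58 to 0.29; limma adjusted p = 0.987), where 0% of all rows were called and 587 had an unadjusted p under 0.05. At P3 the 3 RV libraries, 25.9 to 36.5 FPKM, lay above the 3 LV libraries, 21.8 to 24.3 FPKM. The log2 difference was 0.44 (95% interval 0.00 to 0.87), with an unadjusted p of 0.0484 and an adjusted p of 0.843 by limma. At P7 the 2 RV libraries, 12.1 and 14.2 FPKM, lay above the 3 LV libraries, 10.4 to 10.9 FPKM, with a log2 difference of 0.29 (95% interval -0.19 to 0.78; limma adjusted p = 1). How many of all rows separate the ventricles in this way at P3 or P7 was not counted, so the separation is a description only. Called higher in RV were 0.00903% of all rows at P3 and 0% at P7. Over the 3 ages the log2 difference was 0.20 ± 0.12 (SE; limma adjusted p = 0.819; 0.00903% of rows called), and the RV mean was higher at P3 and P7 and lower at P0. The change from P0 to P7 differed between the ventricles by 0.44 on the log2 scale (RV minus LV, 95% interval -0.22 to 1.09; limma adjusted p = 1), and 0% of all rows were called for this difference, with 454 at an unadjusted p under 0.05. The interval of this last difference leaves room for a smaller fall in the right ventricle, for no difference and for a slightly larger fall there.

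The libraries also fell into sets that the labels do not name and that were defined after the values were seen. The mitochondrial row NONMMUT071594 measured 132 to 247 FPKM in 6 libraries (the high set) and 7.93 to 25.8 FPKM in the other 11 (the low set), and all P7 libraries were in the low set. Within each set, H19 was lower at each later age in every library. This follows from the order over all libraries and is no separate test of the sets. The values of H19 by set were as follows. In the high set it measured 58.9 and 64.0 FPKM at P0 and 21.8 to 36.5 FPKM in 4 libraries at P3. In the low set it measured 46.7 to 95.7 FPKM in 4 libraries at P0, 24.3 and 33.6 FPKM at P3, and 10.4 to 14.2 FPKM in 5 libraries at P7. In the low set alone, the log2 change at P7 against P0 was -2.32 in RV and -2.76 in LV (limma adjusted p = 0.000979 and 8.4e-05). With at most 2 libraries of a group in a set at P0 and P3, single steps were less certain, as given with the processing alternatives.

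**Figure D4:**
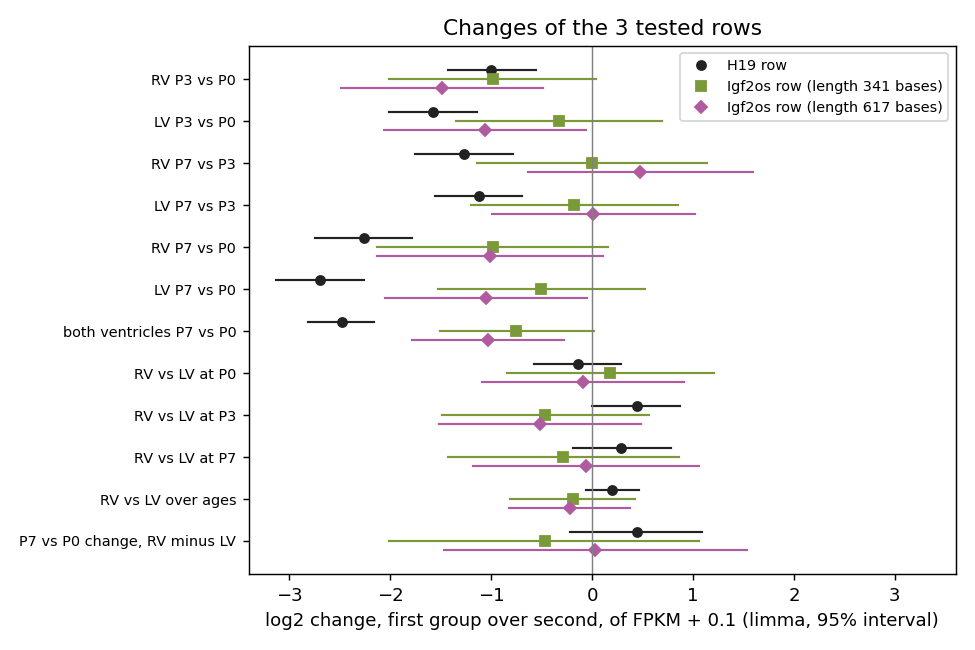
Log2 change of the 3 tested rows in each comparison (first group over second, on the scale of FPKM + 0.1; points are limma estimates and bars their 95% intervals). The intervals of the H19 row lie below 0 in all 7 comparisons of ages. The intervals of the Igf2os rows are wider.

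Igf2os, the antisense transcript, was barely detected. NONMMUT064289, the longer of its rows, measured 0.318, 0.486 and 0.0893 FPKM at P0, 0.0416, 0 and 0.0487 FPKM at P3, and 0 and 0.217 FPKM at P7 in the right ventricle. In the left ventricle it measured 0.276, 0.266 and 0.308 FPKM at P0, 0.13, 0.0855 and 0.0453 FPKM at P3, and 0, 0.0976 and 0.223 FPKM at P7. The P0 values were the higher ones in LV, where 3 of 3 exceeded every later value, and in RV 1 of the 3 lay below a P7 library. No comparison of ages within a ventricle was called for this row. With both ventricles together the log2 change at P7 against P0 was -1.03 ± 0.36 (SE; limma adjusted p = 0.0485), where 16.1% of all rows were called lower. Besides H19, a member was called in this comparison in 6 of 28 alternative settings, 1 of which added up the rows at 1 position, and in the other 22 none was. NONMMUT064288, the shorter row, was above 0 in 6 libraries and at 0 in 11, with 0.323 FPKM as its highest value (RV at P0), and it was called in no comparison.

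In fragments, the Igf2os rows together held 3 to 5 per library at P0, 0 to 1.5 at P3 and 0 to 2.5 at P7. The sums were 23 fragments in 6 libraries at P0, 5 in 6 libraries at P3 and 6.5 in 5 libraries at P7, from library totals, inferred from the steps of the values, that add up to 107, 106 and 89.3 M fragments. At the shortest lengths allowed, every P0 library held more than every later library. Other allowed lengths can change this order, and how many of all rows show it was not counted. With the values of rows at 1 position added before the fit, the position was called in RV at P3 against P0 (log2 change -2.05 ± 0.39 SE; limma adjusted p = 0.00526) and in RV at P7 against P0 (-1.58 ± 0.44 SE; limma adjusted p = 0.0375). In LV the same sums gave -0.99 ± 0.39 at P3 and -1.05 ± 0.39 at P7 against P0 (SE; limma adjusted p = 0.276 and 0.0897). Over both ventricles they gave -1.31 ± 0.29 at P7 against P0 (SE; limma adjusted p = 0.0037). The summed fits called 269 positions for RV at P3 against P0, 602 for RV at P7 against P0 and 2225 over both ventricles. The number of positions tested in them was not recorded, so no share of positions can be given. Before summing, 2.46%, 5.55% and 20.5% of the 11079 rows were called in these 3 comparisons. Fragment counts this low allow no statement on a difference between ventricles.

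**Figure D5:**
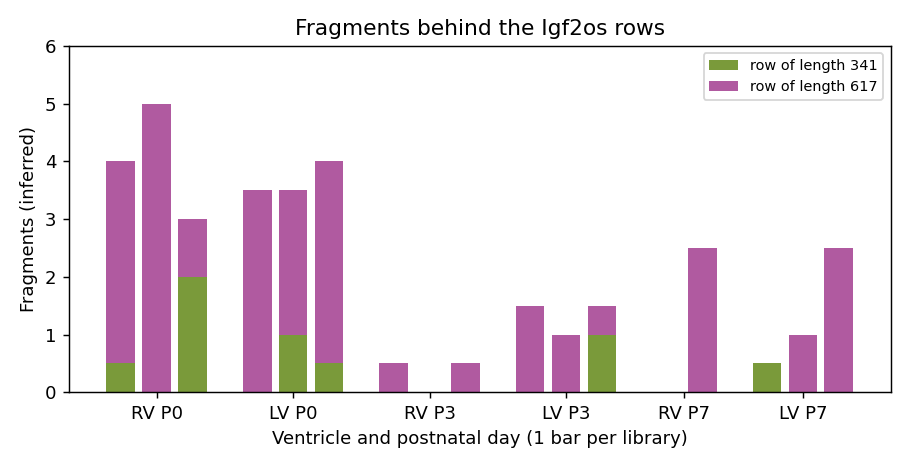
Fragments behind the 2 Igf2os rows (inferred from the steps of the values at the shortest length allowed), stacked for each library, by ventricle and postnatal day. Bars reach 3 to 5 at P0 and at most 2.5 at P3 and P7; a bar that is missing stands for a library with 0 fragments.

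The row at the 3′ end of Igf2, NONMMUT064283, did not pass the filter on low values (0.1 FPKM in 2 libraries) and was not tested. It held 0 to 3.5 fragments per library, 21.5 in all, and its highest value was 0.0939 FPKM, in LV at P0. It averaged 0.0582 FPKM in 6 libraries at P0, 0.0241 FPKM in 6 at P3 and 0.0161 FPKM in 5 at P7. This is the value of a noncoding row and not a level of the Igf2 mRNA.

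The sum over the 4 rows was in effect the level of H19, which made up 97.76% to 100% of it in each library. The other 3 rows added at most 0.552 FPKM. The sum measured 66.5 ± 23.7 FPKM at P0 and 32.1 ± 5.44 FPKM at P3 (SD, n = 3 each) and 13.3 ± 1.58 FPKM at P7 (SD, n = 2) in the right ventricle. In the left it measured 72.3 ± 21, 23.6 ± 1.39 and 10.8 ± 0.335 FPKM at P0, P3 and P7 (SD, n = 3 each).

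The surroundings of the locus held low values. Within 1 Mb on each side, 26 further rows had a median level of 0.0222 FPKM, and none reached a mean of 1 FPKM. The highest, NONMMUT064248, averaged 0.673 FPKM. Of these rows 10 passed the filter. At P7 against P0, 1 of the 10 was called in LV, where 11.2% of all rows were called, and 0 of 10 in RV, where 5.55% were called. The one in LV was NONMMUT064272 (positions 149719066 to 149723194), which fell with a log2 change of -1.05 ± 0.32 (SE; limma adjusted p = 0.0385). Over both ventricles 2 of 10 were called, where 20.5% of all rows were called. They were NONMMUT064272 (-0.70 ± 0.24 SE, limma adjusted p = 0.0439) and NONMMUT064258 (-1.20 ± 0.37 SE, limma adjusted p = 0.0295).

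Several rows elsewhere in the genome followed H19 closely over the 17 libraries. Of 5538 rows above the median level of the rows tested, 51 had a Pearson r over 0.9 with H19 on the log2 scale. These values are descriptions, as the libraries share ages and any change of whole libraries. The nearest was TCONS_00049214 on chromosome 6 (87387308 to 87387671), with r = 0.98. It measured 17.2 to 36.4 FPKM at P0, 0.537 to 3.71 FPKM at P3 and 0 to 0.147 FPKM at P7, with log2 changes at P7 against P0 of -7.37 in RV and -8.04 in LV. As its P7 values lie near 0, the size of these changes depends on the 0.1 added before the log. NONMMUT020707 on chromosome 14 (50299848 to 50301899; r = 0.966) measured 4.0 to 6.54 FPKM at P0, 1.76 to 2.16 FPKM at P3 and 0.643 to 1.37 FPKM at P7. The other 3 were TCONS_00064979 (91000651 to 91007640; r = 0.956) and NONMMUT071698 (6730937 to 6732267; r = 0.954), both on chromosome X, and TCONS_00055858 on chromosome 7 (129177725 to 129179488; r = 0.954). Which genes lie at these positions was not examined.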

How the data were processed

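Each deposited table held the row IDs, positions and values of 1 library. No unit is named, and the authors' values were taken to be FPKM from their steps. The submitters' processing notes name STAR 2.4.0j and the build mm10, but the positions match an older build, taken to be mm9; no position was converted. How fragments were counted, on which annotation and with what normalization is not given in the sources used here. Values were tested as log2(FPKM + 0.1) with limma 3.58.1 in R 4.3.3 (1 mean per group over 17 libraries, variance trend, robust moderation). Rows with 0.1 FPKM or more in at least 2 libraries were kept (11079). Calls required an adjusted p under 0.05 (two-sided test, Benjamini-Hochberg over all these rows). This scale understates changes of low rows. Members with a mean of 1 FPKM or more, or called, were given per library, and the 5 rows most like H19 by Pearson's r were named. The window, its rows and the tests were chosen with earlier results of these data known. Between 34.1% and 49.2% of rows were at 0 in a library. The p values measure 1 spread between libraries per row, shared by all 6 groups, so the scatter of the P0 libraries also enters comparisons without P0. The closing section gives the effect of other settings.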

Additional observations from a re-analysis of the deposited data

How the results depend on the processing

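The fall of H19 from P0 to P7 kept its direction and its call in all 28 alternatives, with log2 changes of -2.48 to -1.99 in RV, -2.86 to -2.37 in LV and -2.59 to -2.18 over both. As the ages do not overlap, leaving out 1 library could not turn the direction of any change between ages. A library outside the compared groups enters only the spread and not the log2 change. The shorter steps kept their direction in every alternative, and their calls were lost in some. For P3 against P0 in RV, the log2 change was -1.0 (adjusted p = 0.0904) without the variance trend, -0.96 (0.22) in the low library set and -0.94 (0.0925) in the high set, and in LV -1.58 (0.107) in the low set. For P7 against P3 it was -1.02 (0.0949) in RV and -0.88 (0.0723) in LV with median scaling, -1.27 (0.107) and -1.12 (0.0896) without the variance trend, and -1.35 (0.192) and -1.18 (0.398) in the low set. Leaving out 1 library gave -1.22 to -0.73 for RV and -1.74 to -1.35 for LV at P3 against P0, and -1.41 to -1.16 for RV and -1.17 to -1.09 for LV at P7 against P3. In these settings, 0 members were called where H19 was not, against 1. The RV minus LV difference at P0 ranged from -0.41 to 0.08 when 1 library was left out, turning to 0.08 without RV P0 replicate 2 or LV P0 replicate 1, and no RV against LV difference was called in any alternative. Over both ventricles, 2 members were called at P7 against P0, where 20.5% of all rows were called. The count was 1 with a pseudocount of 0.01, without a filter, with a filter of 1 FPKM, with median scaling, with only the compared groups, without the variance trend, with the set as a term, in the low set and with the replicate block, and 1 to 2 when 1 library was left out; over these alternatives 1175 to 2387 of all rows were called. With values summed per position, 2 were called for RV at P3 against P0, RV at P7 against P0 and any change with age, against 1. These fits called 269, 602 and 1160 positions, and the number of positions tested was not recorded. For any change with age, without summing, the count of members called was 1 to 2 when 1 library was left out. The library sets were chosen after seeing the data, and the causes of lost calls were not tested. Libraries with the same number in RV and LV at 1 age had deviations that correlated by 0.045 to 0.17 over 8 pairs, and 8 of 8 correlated best with their own number. The library sets also matched by number. P0 replicate 3 and P3 replicates 1 and 3 were in the high set in both ventricles, and all other libraries were in the low set. The main fits were left unpaired, as not every pair passed 0.1, but this cut cannot decide whether the numbers pair the libraries. Whether they share an animal was not tested. The replicate block changed no call of H19. With the block, the adjusted p of H19 by limma for RV against LV was 0.225 at P3, against 0.843 without it. Over the ages it was 0.37, against 0.819. Over all rows the replicate block gave 11 calls for RV against LV at P3, where the fit without it gave 1, and 5 over the ages, against 1. Depth limits the rows other than H19, which rest on 0 to 5 fragments per library.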
